A study of Rattus norvegicus with 15 samples.

Results

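DNA methylation in blood was compared between diabetic rats given calcium dobesilate (CaD) and diabetic rats given a herbal mixture that the labels name only as "another Chinse formula". The comparison holds 6 of the 15 arrays of the series, the 3 with a CaD title and the 3 with the title of the other formula. The members were taken from the titles and not by a measured value, but with earlier results of these data known. CaD replicate 3 is shown apart from CaD replicates 1 and 2, because the file headers give it the same scan time as all 3 arrays of the other formula.

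All 6 arrays came from male Sprague Dawley rats aged 20 weeks, for which the labels give a starting age of 8 weeks. The labels call both groups DR model rats, which were made diabetic with streptozotocin (STZ) at 45 mg/kg by vein. The treatment protocol in the labels describes the DR model, CaD and LTF groups and leaves out the other formula. STZ destroys the insulin-producing beta cells, so the animals model diabetes from loss of insulin, here used for diabetic retinopathy (DR). The CaD rats were given CaD at 0.25 g/kg per day by mouth, with 1.5 IU of insulin per day by vein. The labels give neither the content nor the dose of the other formula, nor whether insulin went with it, so doses are not matched and an effect of insulin cannot be told apart from one of the treatments. Values of the other 9 arrays, used here as a background, come from 3 control rats given citrate buffer, 3 STZ rats of the DR model given distilled water, and 3 STZ rats given Luo-tong formula (LTF) at 2 g/kg per day with 1.5 IU of insulin per day. The series calls the arrays of a group biological replicates, and no pooling of animals is stated.

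Methyl groups on the cytosines of CpG sites are copied when a cell divides and, at promoters rich in CpG, usually go with a silent gene. In methylated DNA immunoprecipitation (MeDIP), an antibody against methylated cytosine pulls down DNA fragments, which are hybridised in one dye against the untreated input DNA in another. CaD is a dihydroxybenzenesulfonate salt given by mouth as a protector of small vessels, among other uses in diabetic retinopathy. Blood mixes white cells with different methylation patterns, and a shift in their shares and a change of methylation within 1 cell type cannot be told apart on such arrays.

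Each array gave a log2(MeDIP/input) ratio for 172669 probes, and neighbouring probes formed 16782 regions on rn4, the build named in the file headers. A typical region held 10 probes over 1655 bp (medians). A ratio of 0 is the level of the median probe of an array. The median background-subtracted signal of the 6 arrays was 50.6 to 75.7 intensity units for MeDIP DNA, both ends in the other formula, and 46.6 to 61.1 for input DNA. Probes well above background made up 86.6% to 89.7% of an array in the MeDIP channel and 91.9% to 94.7% in the input channel. The interquartile range of the log2 ratio was 1.24 ± 0.0340 (SD, n = 3) with CaD and 1.25 ± 0.0521 (SD, n = 3) with the other formula, a difference of -0.00158 (exact two-sided permutation test, p = 1, with 0.1 as the smallest p that 3 arrays against 3 allow). Spots marked as outliers were left out, and their number followed the scan: 1150 and 701 on CaD replicates 1 and 2, 3939 on CaD replicate 3, and 3359 to 3645 on the arrays of the other formula. As a result, 11444 regions, or 68.2%, had every probe measured on all 6 arrays, and 5338 did not. Precision below is limited by the number of arrays. No region is given a gene, exon or promoter here, since the positions refer to rn4 and the gene table at hand to another build, and markers of blood cell types could not be read for the same reason.

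The first question was whether methylation at any region differed between the 2 treatments. No region passed an adjusted p of 0.05 (limma with Benjamini-Hochberg adjustment, 0 of 16782 regions, or 0%), and the smallest adjusted p was 0.9999. An unadjusted p under 0.05 was found in 188 regions (1.12%), 154 (0.918%) with the higher ratio after CaD and 34 (0.203%) with the higher ratio after the other formula. The differences, CaD minus the other formula, had a median of 0.022 on the log2 scale and ran from -0.43 to 0.50. Only 96 regions differed by more than 0.25 in either direction, a factor of 1.19 in the ratio.

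The intervals of the pooled comparison give the precision of these differences. The pooled fit treats the arrays as independent, although arrays of a scan had a consensus correlation of 0.39. A shift between scans could hide or add to a treatment difference, so the intervals do not bound a treatment effect. The 95% interval of a region's difference had a median half-width of 0.18. It lay wholly between -0.5 and 0.5, a factor of 1.41, in 16512 regions (98.4%), and between -0.25 and 0.25 in 10034 (59.8%). For 270 regions the interval reached past 0.5 on one side, and for 2 of them past 1. The intervals are not adjusted for the number of regions and do not show that the treatments act alike.

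In 1581 regions (9.42%) the 3 CaD arrays and the 3 arrays of the other formula did not overlap. An exact permutation test gives such a split p = 0.1, the smallest that 3 arrays against 3 allow, so it marks no region by itself. CaD lay higher in 1220 of the 1581 (7.27% of all regions) and lower in 361 (2.15%). Thus 77.2% of the separated regions had the higher ratio after CaD. That imbalance depended on how the arrays were scaled. With loess within each array the same count gave 687 higher and 689 lower, or 49.9% higher, with quantile normalization 53.0% higher, and in the value table that the authors deposited the share was 53.4%. It was 81.5% with normexp background correction, 81.6% with only the probes measured on all 6 arrays and 77.4% with outlier spots kept.

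The imbalance also differed between the CaD arrays. The mean of CaD replicates 1 and 2 minus the other formula had a median of 0.0356 over regions, was above 0 in 67.8% of them, and reached an unadjusted p under 0.05 in 1027 (6.12%), 893 (5.32%) higher and 134 (0.798%) lower with CaD (limma, 0 regions at an adjusted p of 0.05, smallest 0.371). CaD replicate 3, measured in the scan of the other formula, differed from it by a median of -0.00323 and lay above it in 48.4% of regions. An unadjusted p under 0.05 was found there in 265 regions (1.58%), 97 (0.578%) higher and 168 (1.00%) lower (limma, 0 regions at an adjusted p of 0.05, smallest 0.9999), and the single array was assumed to vary like the others. In these values the within-scan comparison had no excess of regions higher with CaD. The size of the across-scan shift depended on the scaling, with a median of 0.0136 with normexp, 0.00838 with loess, -0.00114 with quantile normalization and 0.00382 in the deposited table. The within-scan medians were then 0.00889, -0.0102, 0.000169 and -0.00154, so the gap between the 2 comparisons was narrower under each of these and turned with quantile normalization. The within-scan 95% intervals were wider than the pooled ones, with a median half-width of 0.215. They lay between -0.5 and 0.5 in 96.2% of regions and between -0.25 and 0.25 in 35.6%. Scan and treatment cannot be told apart in the comparison of CaD replicates 1 and 2 with the other formula.

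**Figure D1:**
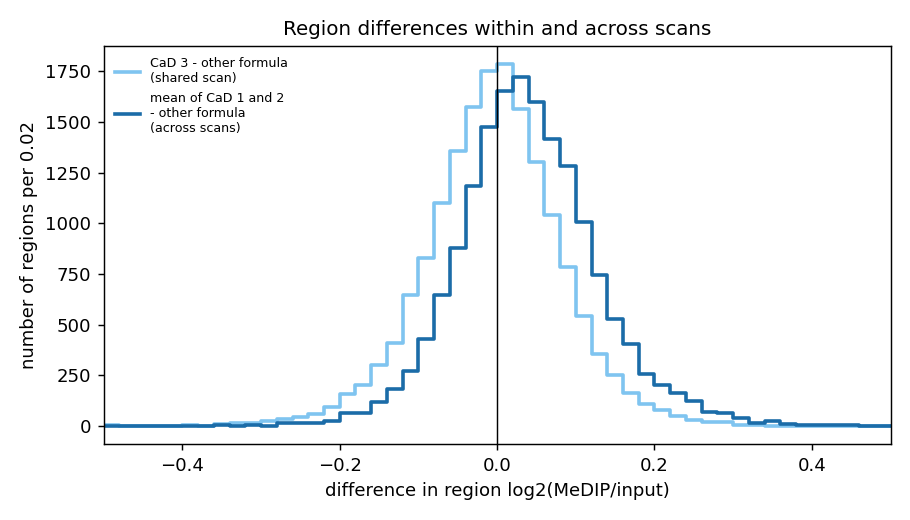
Number of regions (vertical axis, bins of 0.02) by difference in log2(MeDIP/input) from the mean of the other formula (horizontal axis, drawn from -0.5 to 0.5), for CaD replicate 3 in the shared scan (light) and for the mean of CaD replicates 1 and 2 across scans (dark). The light curve centres on -0.00323 and the dark one is shifted to the right, with a median of 0.0356, under centring on the array median (0.0136 with normexp, 0.00838 with loess, -0.00114 with quantile normalization and 0.00382 in the deposited table).

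The CaD arrays also differed among themselves between scans. CaD replicates 1 and 2 minus CaD replicate 3 had a median of 0.0398, and 822 regions (4.90%) reached an unadjusted p under 0.05, 709 (4.22%) higher and 113 (0.673%) lower in replicates 1 and 2 (limma, 0 regions at an adjusted p of 0.05, smallest 0.389).

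Pairs of single arrays were compared next. The median absolute difference over regions was 0.0688 on average between CaD replicate 3 and an array of the other formula (0.0632 to 0.0795, 3 pairs). Between arrays of the other formula it averaged 0.0763 (0.0635 to 0.0883, 3 pairs), and between CaD replicates 1 and 2, which shared a scan, it was 0.0725. Pairs from different scans lay at 0.0820 on average within CaD (2 pairs) and at 0.0821 between the groups (6 pairs, 0.0720 to 0.0948). On average, arrays of different treatments from those 2 scans were as far apart as CaD arrays from them, a comparison given as a description with no test. By correlation over regions, the array most like CaD replicate 3 was replicate 3 of the other formula (r = 0.98), while CaD replicate 2 correlated equally, at 0.976, with CaD replicate 1 and DR model replicate 3 of its own scan and with replicate 3 of the other formula from another scan.

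**Figure D2:**
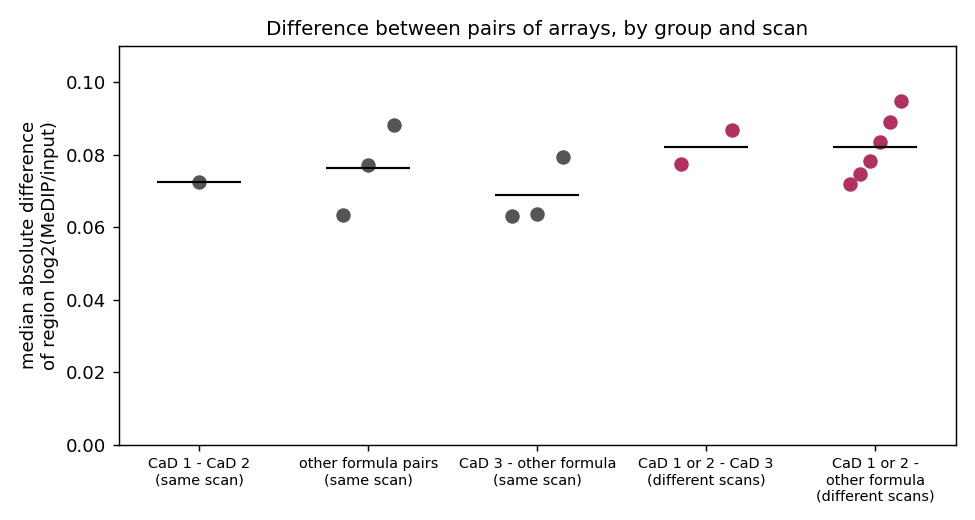
Median absolute difference in region log2(MeDIP/input) (vertical axis) for each pair of the 6 arrays, grouped by treatment and by whether the pair shared a scan (grey, same scan; red, different scans), with the mean of each kind as a line. The pairs of CaD replicate 3 with the other formula average 0.0688, and pairs from different scans average 0.0820 within CaD and 0.0821 between the treatments.

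The pooled difference was graded by the level of the log2 ratio, which is not a measure of methylation alone. The regions were ranked by mean log2 ratio over all 15 arrays and divided into 5 bins of equal size. In the bin with the lowest ratios, from -2.42 to -0.55, the pooled difference had a median of 0.0514, and in the highest bin, from 0.34 to 2.24, a median of 0.00908. Against the mean of the other formula, the lowest bin lay at 0.0479 in CaD replicate 1, 0.116 in CaD replicate 2 and -0.00405 in CaD replicate 3. The arrays of the other formula were themselves at -0.071, 0.0268 and 0.0429, so CaD replicate 1 barely left their range, CaD replicate 2 lay above it and CaD replicate 3 lay inside it. The across-scan median of the lowest bin, 0.0814, was 0.0379 with normexp, 0.0505 with loess, 0.0299 with quantile normalization and 0.0195 in the deposited table. In the highest bin all 3 CaD arrays, at 0.0274, 0.00580 and -0.00451, lay inside the range of the other formula, from -0.0287 to 0.0452.

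**Figure D3:**
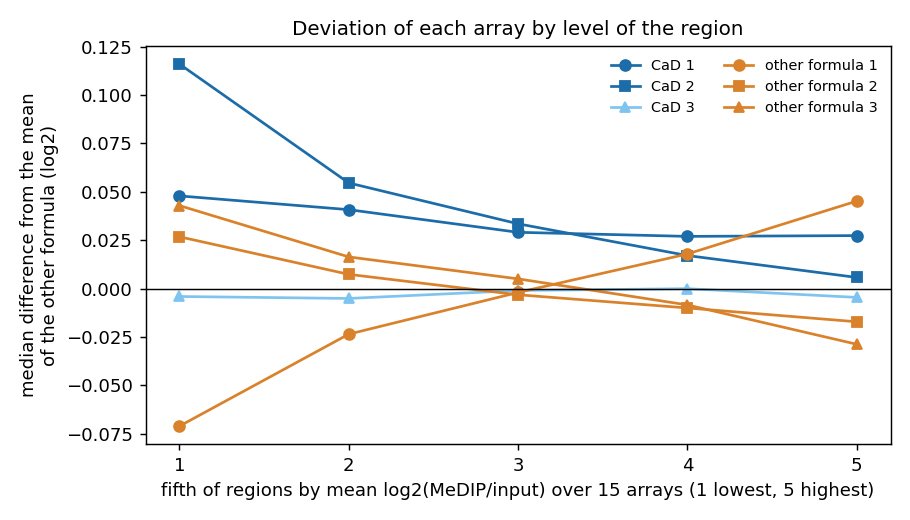
Median difference of each array from the mean of the other formula (vertical axis, log2) in 5 bins of regions ranked by mean log2(MeDIP/input) over 15 arrays (horizontal axis, 1 lowest). CaD replicate 2 falls from 0.116 to 0.00580 and replicate 1 of the other formula climbs from -0.071 to 0.0452, while CaD replicate 3 stays between -0.00506 and -7.98e-06.

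Probe length moved with the same pattern. The pooled difference had a median of 0.00693 in the 2774 regions whose probes averaged up to 46 nucleotides and of 0.0578 in the 1306 regions with probes over 55 nucleotides, which also held low ratios. Within the shared scan the medians of the length classes lay between -0.00423 and -0.000268. The part of probe length in the differences was not tested. Over the 21 chromosomes the pooled median ran from 0.00754 on chromosome 19 to 0.0321 on chromosome 18, above 0 on each, and the within-scan median from -0.0134 on chromosome 14 to 0.00554 on the X chromosome. The X chromosome had the largest share of separated regions, with 58 higher and 12 lower of 606 regions, or 11.6% against 9.42% over all regions, a description with no test.

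Single regions are given next, none of which passed the threshold (adjusted p = 0.9999 in limma for each, also within the shared scan). They are the 10 higher and the 10 lower regions that had the smallest p of all regions without overlap between the groups, so that separation was a condition of the choice and not a finding. The 10 higher regions differed by 0.23 to 0.49 and the 10 lower ones by -0.43 to -0.15. Within the shared scan the same regions differed by 0.13 to 0.41 and by -0.49 to -0.07. Their sizes depended on the setting. With normexp they ran from 0.00 to 0.15 and from -0.29 to 0.00, without probes that were not well above background in the input channel from 0.04 to 0.36 and from -0.43 to -0.01, and in the deposited table, on its own scale, from -0.01 to 0.24 and from -0.24 to -0.03.

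Of these, the smallest p belonged to chr19:32226870-32228629. Its log2 ratio was -0.04, -0.06 and -0.31 in CaD replicates 1, 2 and 3, and -0.54, -0.36 and -0.49 with the other formula. CaD replicate 3 stood just above the highest array of the other formula, and the 2 remaining CaD arrays stood well above it. The difference was 0.32 ± 0.08 (SE), but 0.15 within the shared scan. Controls, at -0.42 to -0.30, and LTF, at -0.37 to -0.26, lay below CaD replicates 1 and 2 and above the 2 lower arrays of the other formula. Of its 11 probes, 2 were left out as outliers on all 4 arrays of the shared scan, and the 9 that were measured on all 6 arrays gave 0.27. The region's difference was 0.09 with normexp, 0.13 without the probes dim in the input channel and 0.04 in the deposited table. The 60-nucleotide probe with the largest difference, 0.99, was not well above background in the MeDIP channel on any of the 6 arrays.

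The next region, chr1:177742056-177743828, kept its difference within the shared scan. The ratio was -0.04, 0.20 and 0.12 in the CaD arrays and -0.21, -0.31 and -0.34 with the other formula. All 3 CaD arrays also lay above the 9 remaining arrays of the series, which ran from -0.62 to -0.16. The difference was 0.38 ± 0.10 (SE) pooled, 0.41 within the shared scan and 0.36 across scans. It was 0.14 with normexp background correction and 0.22 when probes not well above background in the input channel were left out. In the deposited table it was 0.24, on the table's own scale.

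The probes of this region did not differ evenly along it. The 4 probes measured on all 6 arrays below the centre coordinate differed by 0.29 to 1.91, and the 6 above it by -0.05 to 0.20. The largest difference belonged to a 60-nucleotide probe at -148 bp from the centre. Its ratio was 0.25, 0.59 and 0.31 in the CaD arrays and -0.67, -1.55 and -2.35 with the other formula. The MeDIP signal there, after background subtraction, was 22.5, 32.2 and 38.6 intensity units with CaD and 17.8, 9.97 and 5.98 with the other formula, the last not well above background. Input signal at that probe was 13.1, 20.1 and 24.7 with CaD and 24.6, 22.8 and 22.6 with the other formula, so the groups did not overlap in the MeDIP channel and did in the input channel.

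**Figure D4:**
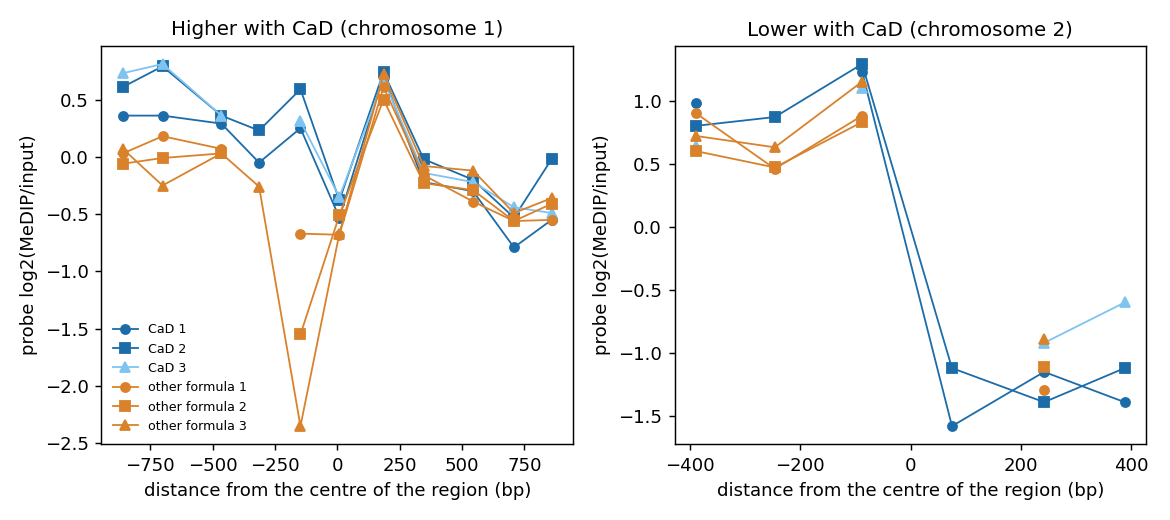
Log2(MeDIP/input) of each probe (vertical axis) by distance from the centre of the region in bp (horizontal axis) on the 6 arrays, for chr1:177742056-177743828 (left) and chr2:182536679-182537501 (right), with lines broken where a spot was left out as an outlier. On the left the arrays part below the centre, by 1.91 at -148 bp, and come together above it. On the right the probes at 75 and 388 bp, with low values, are missing on several arrays. The probe at 242 bp is low on all 6.

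A region of the X chromosome, chrX:113553146-113553602, rested on 3 probes. Its ratio was -0.26, -0.15 and -0.39 with CaD and -0.68, -0.48 and -0.71 with the other formula, a difference of 0.36 ± 0.10 (SE). With only the 2 probes measured on all 6 arrays the difference was 0.14 and the groups overlapped. It was 0.15 with normexp, 0.36 without the probes dim in the input channel and 0.03 in the deposited table. On chromosome 3, chr3:71663001-71664686 had the largest pooled difference of the 20, 0.49 ± 0.14 (SE). The ratio was -0.75, -0.84 and -0.97 with CaD and -1.50, -1.42 and -1.11 with the other formula. All 6 values are below 0, and the difference within the scan was 0.38. The mean difference of this region by channel was 0.07 in log2 MeDIP signal and -0.47 in log2 input signal, and it was 0.00 with normexp background correction, 0.18 without the probes dim in the input channel and 0.06 in the deposited table.

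A further region, chr5:53434878-53436340, was the only other one of the 20 where all CaD arrays lay above all 12 other arrays of the series. The ratio was -0.80, -0.73 and -0.81 with CaD and -1.16, -1.23 and -0.97 with the other formula. The difference, 0.34 ± 0.10 (SE), was 0.31 within the shared scan and 0.27 without the probes dim in the input channel, but 0.04 with normexp. It was not present in the authors' deposited value table, where it was -0.01 on the table's own scale. Over all regions, the CaD arrays lay above the 12 others in 58 (0.346%) and below them in 26 (0.155%). The arrays of the other formula lay above in 11 (0.0655%) and below in 54 (0.322%), while those of the controls did so in 162 (0.965%) and 427 (2.54%). For the DR model the counts were 138 (0.822%) and 34 (0.203%), and for LTF 152 (0.906%) and 225 (1.34%).

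The remaining 5 regions higher with CaD lay on chromosomes 1, 8, 9 and 20 and had differences of 0.23 to 0.31. Among them, chr8:35342474-35344215 had the same difference within and across scans, 0.24 in both. Its ratio was -0.54, -0.47 and -0.51 with CaD and -0.82, -0.79 and -0.64 with the other formula, and all 9 probes were measured on the 6 arrays and were higher with CaD. The region's difference was 0.07 with normexp, 0.26 without the probes dim in the input channel and 0.1 in the deposited table. In chr1:217063053-217064760 CaD replicate 3 was the highest of the 6 arrays. That region's difference of 0.23 was 0.03 with normexp, 0.04 without the dim probes and 0.05 in the deposited table. The ratio there was -1.03, -0.98 and -0.93 with CaD and -1.24, -1.22 and -1.20 with the other formula. By contrast, chr9:13169664-13171127 differed by 0.13 within the scan and 0.40 across scans, with CaD replicate 3 at -0.71 and replicates 1 and 2 at -0.46 and -0.42. The other formula was at -0.96, -0.76 and -0.80 there. The pooled difference of this region, 0.31, was 0.07 with normexp, 0.17 without the dim probes and 0.16 in the deposited table. Across the 10 higher regions the across-scan difference was the larger one in 7.

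**Figure D5:**
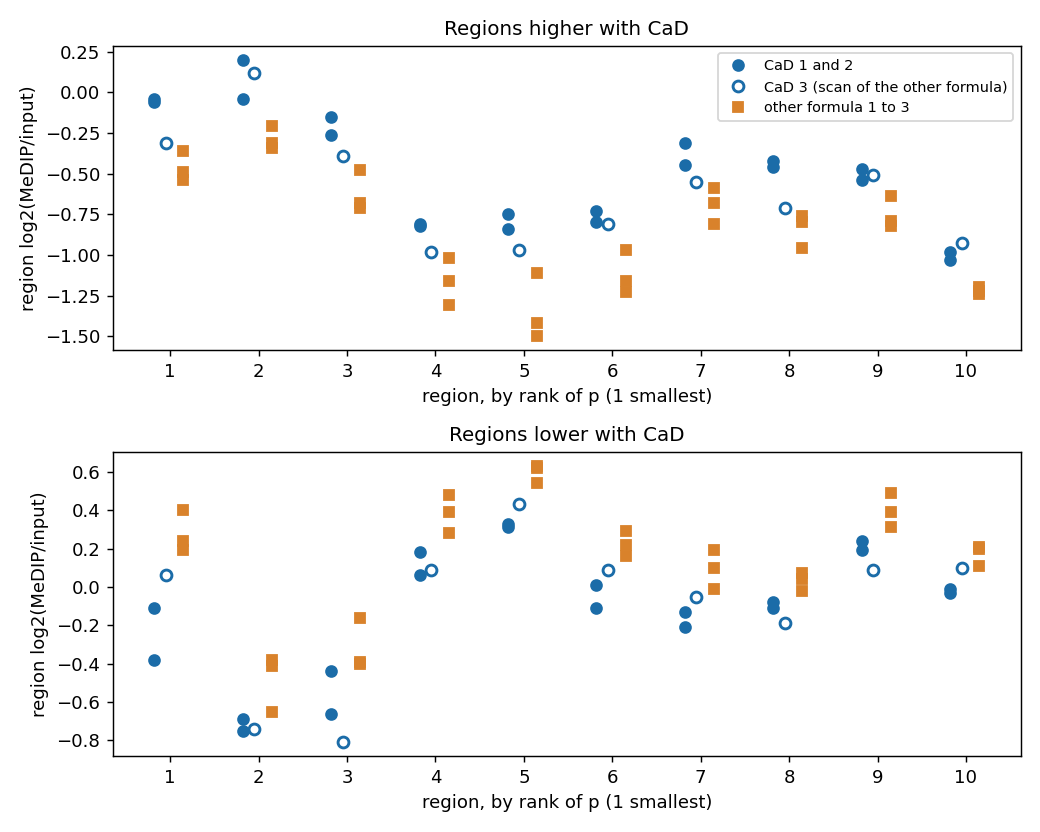
Region log2(MeDIP/input) (vertical axis) for the 10 regions higher (top) and the 10 lower (bottom) with CaD that had the smallest p, in order of p (horizontal axis), on each of the 6 arrays. Filled circles are CaD replicates 1 and 2, open circles CaD replicate 3 and squares the other formula. The groups are apart in each region by the rule of choice, with gaps of 0.04 to 0.17 in the top panel and 0.01 to 0.14 in the bottom panel.

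Among the regions lower with CaD, the one with the smallest p depended on which probes were measured. At chr2:182536679-182537501 the ratio was -0.38, -0.11 and 0.06 with CaD and 0.24, 0.19 and 0.40 with the other formula, a difference of -0.43 ± 0.12 (SE). Of its 6 probes, 3 lacked a value on at least one of the 6 arrays. The probe 75 bp above the centre, with low ratios, was measured on CaD replicates 1 and 2 only, and the probe 388 bp above it on the CaD arrays only. The 3 probes measured on all 6 arrays gave a difference of 0.09, in the opposite direction. The region's difference was -0.29 with normexp, -0.43 without the probes dim in the input channel and -0.06 in the deposited table.

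The next of these, chr2:53884233-53886011, had all 9 probes on the 6 arrays. Its ratio was -0.75, -0.69 and -0.74 with CaD and -0.41, -0.38 and -0.65 with the other formula, so the CaD arrays lay close together and replicate 3 of the other formula lay near them. The difference was -0.25 ± 0.08 (SE), and -0.26 within the shared scan. LTF, at -0.52 to -0.37, was on the side of the other formula, and controls, at -0.78 to -0.72, on the side of CaD. The DR model, at -0.88 to -0.61, reached from below the CaD arrays into the range of the other formula. The difference was -0.01 with normexp background correction, -0.02 without the probes dim in the input channel and -0.07 in the deposited table.

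At some other lower regions the difference was near 0 with only the probes measured on all 6 arrays. At chr4:70249815-70250346 the ratio was -0.44, -0.66 and -0.81 with CaD and -0.40, -0.39 and -0.16 with the other formula. The difference went from -0.32 to -0.05 with the 3 probes measured on all 6 arrays, and to -0.15 with outlier spots kept. It was -0.27 with normexp, -0.32 without the probes dim in the input channel and -0.24 in the deposited table. At chr5:144425360-144426812 the ratio was 0.18, 0.06 and 0.09 with CaD and 0.48, 0.28 and 0.39 with the other formula. There the difference went from -0.28 to 0.03 with the shared probes. At chr7:142249724-142251449 it went from -0.15 to -0.01 with the 8 probes measured on all 6 arrays. The groups were still apart with shared probes in 6 of the 10 lower regions and in 9 of the 10 higher ones. The same held at large: of the separated regions, 89.9% of the 1220 higher with CaD and 69.8% of the 361 lower with CaD stayed separated when only probes measured on all 6 arrays were used.

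The 5 lower regions that had every probe on all 6 arrays differed by -0.25 to -0.15, and with normexp by -0.06 to 0.00. One of them, chr8:113705430-113706101, lay above 0 on every array. Its ratio was 0.31, 0.33 and 0.43 with CaD and 0.54, 0.62 and 0.63 with the other formula, a difference of -0.24 ± 0.09 (SE), and -0.17 within the shared scan. It was -0.02 with normexp, -0.08 without the probes dim in the input channel and -0.07 in the deposited table. In chr13:107386846-107387692, CaD replicate 3 was the lowest array. The ratio there was 0.19, 0.24 and 0.09 with CaD and 0.39, 0.31 and 0.49 with the other formula, and the difference was -0.22 ± 0.09 (SE). There too it was near 0 with normexp, at 0.00, and it was -0.04 without the dim probes and -0.03 in the deposited table.

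Within the shared scan, regions were ranked on CaD replicate 3 alone. This array lay outside the range of the other formula in 7354 regions (43.8%), above it in 3560 (21.2%) and below it in 3794 (22.6%). A single array often lies outside the range of a few others without any difference, so these shares are a description with no test. The 5 higher and 5 lower regions with the smallest p among them differed by 0.27 to 0.59 and by -0.63 to -0.39. With normexp these ranges were 0.06 to 0.44 and -0.23 to -0.02, and from the deposited values 0.11 to 0.35 and -0.20 to -0.02. The first of them was chr3:73017509-73019233, with -1.01 in CaD replicate 3 and -1.65, -1.51 and -1.60 with the other formula, a difference of 0.58 ± 0.11 (SE), which was 0.14 with normexp. CaD replicates 1 and 2, at -1.43 and -1.38, lay between. The lower region with the smallest p was chr19:26088162-26089473, with -0.03 in CaD replicate 3 and 0.38, 0.39 and 0.38 with the other formula. Its difference of -0.41 was -0.05 with normexp. CaD replicates 1 and 2 were at 0.28 and 0.26 there, below the other formula as well.

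In other regions of this set the CaD arrays went apart. At chr5:154674563-154674925 CaD replicate 3 was at 0.36, against -0.42 and -0.38 in CaD replicates 1 and 2 and -0.12, -0.38 and -0.20 with the other formula. At chr4:166867621-166868148 it was at -1.57, against -0.82 and -0.88 in the other CaD arrays and -1.22, -1.05 and -1.16 with the other formula. The across-scan differences of the 10 regions ran from -0.24 to 0.29, smaller in size than the within-scan difference in each. Choice by the within-scan p favours large within-scan differences, so this contrast is not a finding. With only the shared probes the region of chromosome 5 differed by -0.01 within the scan.

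Neighbouring regions did not all share the direction of the named ones. Around chr1:177742056-177743828, 3 regions lay within 100 kb, and their pooled differences ran from -0.06 to 0.18. Around chr5:53434878-53436340, 11 of 15 neighbours had the higher mean with CaD, with differences from -0.26 to 0.24, where 64.5% of all regions did. Around chr2:53884233-53886011, 2 of 2 neighbours were lower with CaD, at -0.06 and -0.02.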

How the data were processed

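MeDIP DNA (Cy5) and input DNA (Cy3) of rat blood were measured on 15 2-colour Agilent arrays, 3 in each of 5 groups. Per the file headers, the authors' deposited scanner files come from Feature Extraction 11.0.1.1 on rn4 (release 3.4) and hold an intensity per spot and channel, processed by background subtraction and linear dye normalization. The deposited log10 ratio equalled that of the processed Cy5 over Cy3 signals (tolerance 0.001 in log2) at 99.3% to 99.9% of an array's probes. The deposited value table was treated as a score, its log base, centring and smoothing being unknown. The tool limma is named in the submitters' processing notes without a role.

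From the processed signals, log2(Cy5/Cy3) was taken for 172669 probes, with 6856 control spots and outlier spots left out, and each array was centred on its median. Adjacent probes up to 500 bp apart were merged, and runs of at least 3 probes with a value on each array were kept (16782 of 17668). limma 3.58.1 (lmFit, eBayes; R 4.3.3, jsonlite 2.0.0 and the data.table package, version 1.17.8) fitted a mean for each group over all 15 arrays, with 10 residual degrees of freedom, and, for comparisons within and across scans, a mean for each group in each of 6 scans. P-values were adjusted by Benjamini-Hochberg over regions, threshold 0.05. On data simulated from the pooled fit, with 50 regions changed at each size, 14 were called at 0.3, 45 at 0.6 and 49 at 1 on the log2 scale, and within the shared scan 1, 21 and 48. The pooled simulation also called 11 unchanged regions, 1 count common to all sizes. The pooled fit has no term for scan, so these counts are not the power of the design with its scans. Figures were drawn with matplotlib 3.10.9 in Python 3.11.15.

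Named regions are, by smallest p, the first 10 higher and first 10 lower of the regions without overlap between the groups, and for the shared scan the 5 higher and 5 lower where CaD replicate 3 lies outside the range of the other formula. The members, lists and rules were chosen with earlier results of these data known. Lists of genes and blood cell markers were not usable, because the files pair no probe with a gene. Alternatives covered background correction (normexp, on median in place of mean signals, offset 50), normalization, filters, region building, blocks and each array left out. Replicate numbers did not pair the samples (correlations of same-numbered deviations 0.111, 0.0637 and -0.0181).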

Additional observations from a re-analysis of the deposited data

How the results depend on the processing

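No region was called between the treatments in limma under any alternative run on the scanner values or the deposited table. The regions at an unadjusted p under 0.05 numbered 88 to 813, against 188 of 16782 (1.12%) in the main setting. Of the same 16782 regions, that number was 813 when only the 6 arrays were fitted and 408 without CaD replicate 3. It was 117 and 88 without CaD replicates 1 and 2, and 106 without replicate 1 of the other formula. With the replicate number as a block it was 157, and 0 regions were called. The other comparisons were counted with normexp, loess, quantile normalization and the deposited value table, and in some fits with 1 array left out. Among these settings only the deposited value table, with 16784 regions, gave calls. It gave 1 region within the shared scan, 7 for CaD replicates 1 and 2 against the other formula (2 higher, 5 lower), and 2 for these replicates against CaD replicate 3. Chosen after their values were seen, the first is chrX:89374898-89376431 (0.51 on the table's scale, adjusted p = 0.000474 in limma; 0.27 in the scanner values), and the last 2 are that region (-0.69) and chrX:101004233-101004923 (-0.56). Separated regions higher and lower with CaD numbered 687 and 689 with loess and 875 and 777 with quantile normalization, each of 16782 regions. They numbered 835 and 729 of the 16784 regions in the deposited table, against 1220 and 361 of 16782 in the main setting. The difference in interquartile range was 0.00112 with loess, 0.0101 with outlier spots kept and 0.00758 without dim probes, and -0.0251 to 0.0264 with 1 array left out. The difference turned to -0.01 in the deposited table at chr5:53434878-53436340. With only shared probes, added after the data were seen, it turned to 0.09 at chr2:182536679-182537501, 0.03 at chr5:144425360-144426812 and -0.01 within the scan at chr5:154674563-154674925. The cause was not tested. Normexp with its offset shrinks ratios at low signal by construction, and brought the 10 higher named regions to 0.00 to 0.15 and the 10 lower ones to -0.29 to 0.00.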
